A study of Arabidopsis thaliana with 8 samples.

Results

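The microRNA families of wild-type Arabidopsis thaliana seedlings were ranked by their abundance. Members were the 52 families that the deposited small RNA table lists, all of them kept, measured in the 2 wild-type samples out of 8 samples in the series. The seedlings were of the Columbia accession, grown at 22 °C with 18 h of light and 6 h of dark, and taken whole at 10 days after germination. Each library was made from 4 µg of total RNA, taken from a pool of 50 seedlings with a column kit. The labels call the 2 wild-type pools biological replicates. They give 2 codes for replicate 2, which the deposited table already combines, and what the codes stand for is not stated there. The other samples are mRNA from wild-type seedlings of the same study and both RNA types from plants that carry the coffee gene CAHB12. The transgenic values served only in checks of the table and are not compared with wild type.

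MicroRNAs are short RNAs that the Dicer enzyme DCL1 cuts from hairpin transcripts in the nucleus. They are loaded into Argonaute proteins, mainly AGO1, and guide the cleavage or the translational repression of mRNAs with a matching site. Families shared by flowering plants or by all land plants mostly target transcription factors, hormone receptors and the small RNA machinery itself. Young families occur in few species, usually come from a single locus, and often have targets that are few or unknown. In seedlings the conserved families are known for setting leaf polarity, organ boundaries, the juvenile to adult transition, auxin response and the use of copper, phosphate and sulfate.

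Levels are given as RPM, the reads of a family per 1000000 reads of its library, so the level of a family is not divided by its length. Values of 1 RPM and above had lost their decimal mark in the deposited table, and the mark was put back at the place that gives whole reads and the closest replicates. A single read was worth 0.0598 RPM in replicate 1 and 0.1057 RPM in replicate 2, which corresponds to 16715396 and 9463330 reads. The 52 families together held 767532 reads in replicate 1 and 637370 in replicate 2, or 4.59% and 6.74% of the libraries. Summed over families this was 45918 and 67352 RPM, so RPM levels in replicate 2 start from a larger microRNA fraction. Every 95% interval below is exact (Poisson for reads, Clopper-Pearson for shares) and covers counting error of the reads only, not variation between pools. Because the reads carry no molecular identifiers, copies of the same molecule cannot be told apart, and even that error may be understated.

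A single family, MIR166, supplied more reads than all the others together. MIR166 guides the cleavage of mRNAs for class III homeodomain-leucine zipper factors, which set the upper side of leaves and pattern the vasculature. It had 26516 RPM in replicate 1 and 43385 RPM in replicate 2, a mean of 34951 ± 11928 RPM (SD, n = 2). Its share of all family reads was 57.7% (interval 57.6 to 57.9) in replicate 1 and 64.4% (64.3 to 64.5) in replicate 2, a mean of 61.1 ± 4.72% (SD, n = 2). MIR168 and MIR159 came next, and the 3 families together held 88.7% and 90.9% of family reads.

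The composition was steep. The 5 most abundant families, MIR166, MIR168, MIR159, MIR167_1 and MIR161, held 94.7% and 95.6% of family reads (95.1 ± 0.590%, SD, n = 2). The 10 most abundant held 98.5% and 98.7%. Families ranked below 13 held 0.876% in replicate 1 and 0.685% in replicate 2, and those ranked below 28 held 0.0791% and 0.0540%. By mean level, 4 families had at least 1000 RPM, 9 had 100 to under 1000, 11 had 10 to under 100, 16 had 1 to under 10, and 12 were under 1 RPM. The median family had 6.73 RPM in replicate 1 and 7.61 RPM in replicate 2.

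One place in this order depends on which columns set the decimal mark. MIR394, whose target is the F-box gene LCR of the shoot stem cell niche, had 17 and 19 reads by the wild-type columns alone (1.02 and 2.01 RPM, mean 1.51, rank 38). That placing gives no whole reads in the transgenic columns of the same family. With all 4 small RNA columns it had 170 and 190 reads (10.2 and 20.1 RPM, mean 15.1, rank 21). The second placing of MIR394 is the likelier, since it gives whole reads in all 4 columns. Ranks, counts, medians and shares elsewhere use the first placing unless stated. The other 51 families were placed alike both ways. With the second placing, 12 families lay from 10 to under 100 RPM and 15 from 1 to under 10.

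**Figure D1:**
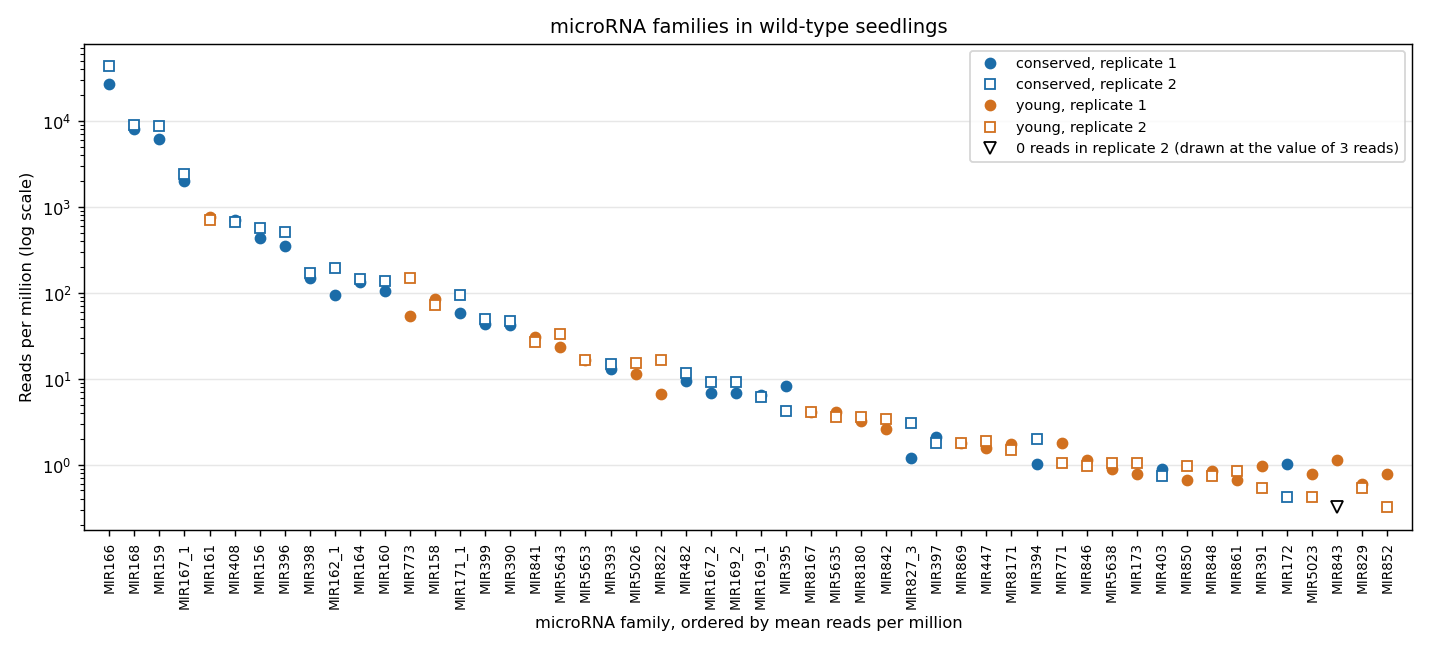
RPM (log axis) of each family in wild-type replicates 1 (filled circles) and 2 (open squares), ordered by the mean, with conserved families in blue and young families in orange. Levels run from 34951 RPM for MIR166 to 0.547 RPM for MIR852, MIR394 is drawn at the placing from the wild-type columns, and the triangle marks MIR843, with 0 reads in replicate 2.

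**Figure D2:**
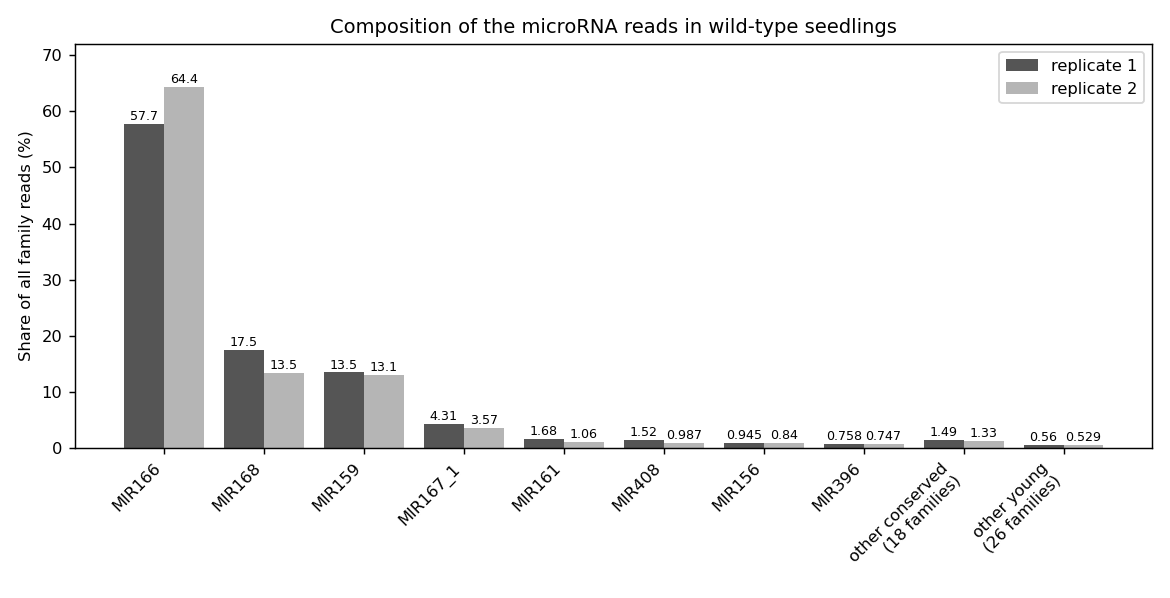
Share of all family reads (%, bars from 0) of the 8 most abundant families and of the remaining conserved and young families, in wild-type replicates 1 (dark) and 2 (light). MIR166 alone takes 57.7% and 64.4%, and the 44 families outside the first 8 share what is left after 98.0% and 98.1%.

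Conserved families carried nearly all of the reads. The 25 families known across flowering plants, or at least across eudicots, held 97.8% (interval 97.7 to 97.8) of family reads in replicate 1 and 98.4% (98.4 to 98.4) in replicate 2, a mean of 98.1 ± 0.461% (SD, n = 2). The 27 young families held 2.24% and 1.58% (1.91 ± 0.461%, SD, n = 2). The median level over families was 46.6 RPM for conserved and 1.73 RPM for young families. The median of all 52 was 7.09 RPM, or 7.98 RPM with the second placing of MIR394. The RefSeq annotation holds 215 family numbers and the deposited small RNA values cover 50, by a rule not given. Medians, counts and shares per class therefore describe the listed families only. Both classes spread widely, from 0.720 to 34951 RPM in conserved and from 0.547 to 740 RPM in young families, so their ranges overlapped.

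The difference was not only that of the leading family. Without MIR166, conserved families still held 94.7% and 95.5% of the remaining reads. A mean of at least 100 RPM was reached by 11 of 25 conserved and 2 of 27 young families, and a mean of at least 10 RPM by 16 conserved (17 with the second placing of MIR394) and 8 young. Means under 1 RPM were found for 2 conserved and 10 young families. The 15 highest places went to 12 conserved and 3 young families, and the 10 lowest to 2 conserved and 8 young. Families known in all land plants, 9 in number, held 78.5% and 83.3% of family reads, and the 15 grouped here as shared by flowering plants held 19.3% and 15.1%.

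Among conserved families, those that target the small RNA machinery stood high apart from 1. MIR168, which limits AGO1, the main microRNA effector, had 8045 and 9061 RPM (8553 ± 719 RPM, SD, n = 2), rank 2. MIR162_1, which limits DCL1, had 94.6 and 194 RPM and held rank 12 in replicate 1 and rank 9 in replicate 2. MIR403, which targets AGO2 and AGO3, had 0.897 and 0.740 RPM, from 15 and 7 reads. The 3 families spanned from the second place to rank 43, and together held 17.7% and 13.7% of family reads, nearly all of it MIR168.

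The families that act on growth and phase change held 73.4% and 79.5% of family reads over 10 entries. After MIR166, MIR159 was highest, at 6187 and 8803 RPM (7495 ± 1849 RPM, SD, n = 2), and it targets the GAMYB-like factors MYB33 and MYB65. Its range over the replicates overlapped that of MIR168 above it, but within each library MIR168 was higher, with counting intervals apart. MIR156, which holds plants in the juvenile phase through SPL factors, had 434 and 566 RPM. MIR396, which limits the growth-regulating factors, had 348 and 503 RPM, below MIR156 in each library. MIR164, a regulator of NAC factors of organ boundaries, had 134 and 145 RPM, and MIR171_1, which targets GRAS factors of the shoot meristem, had 57.4 and 93.1 RPM.

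MIR172 and MIR156 lay at opposite ends of the order. MIR172 promotes the adult phase and flowering by acting on AP2-like factors, and it increases with plant age while MIR156 declines. At 10 days MIR172 had 17 reads in replicate 1 and 4 reads in replicate 2, or 1.02 RPM (interval 0.592 to 1.63) and 0.423 RPM (0.115 to 1.08). By its mean it held rank 48 and was the lowest of the conserved families, although in replicate 1 MIR403, with 15 reads, was lower. The nuclear factor Y regulator MIR169 was split over the entries MIR169_1, with 6.40 and 6.13 RPM, and MIR169_2, with 6.76 and 9.09 RPM. Both replicates of MIR172 were below both replicates of these entries.

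The auxin group, 5 entries, held 4.67% and 3.87% of family reads. MIR167_1, which targets the auxin response factors ARF6 and ARF8, had 1978 and 2403 RPM (2190 ± 300.2 RPM, SD, n = 2) and made up most of the group. Its second entry MIR167_2 had 6.88 and 9.19 RPM. MIR160, which targets the repressing factors ARF10, ARF16 and ARF17, had 106 and 136 RPM. MIR390, which starts the production of trans-acting small RNAs from TAS3, had 42.4 and 47.1 RPM. MIR393, which targets the auxin receptor genes TIR1 and AFB1 to AFB3, was lowest of those in a single entry, at 12.9 and 14.8 RPM.

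The 6 nutrient and copper families held 1.97% and 1.33% of family reads, and the copper families led them. MIR408, which targets plantacyanin and laccases, had 700 and 665 RPM, and MIR398, which targets the copper/zinc superoxide dismutases CSD1 and CSD2, had 149 and 171 RPM. The third copper family, MIR397, a regulator of laccases, had 2.09 and 1.80 RPM. The copper-responsive families thus differed widely in level, with both replicates of MIR397 below both of MIR398. MIR399, which acts on PHO2 in phosphate uptake, had 43.3 and 50.0 RPM. MIR827_3, which acts on the phosphate ubiquitin ligase gene NLA, had 1.20 and 3.06 RPM. MIR395, which targets ATP sulfurylases and the sulfate transporter SULTR2;1, had 8.20 and 4.23 RPM (intervals 6.88 to 9.69 and 3.02 to 5.76). In RPM, MIR395, MIR397 and MIR408 were lower in replicate 2, whereas MIR398, MIR399 and MIR827_3 were higher. Counting intervals of MIR397 and of MIR399 overlapped between the replicates. As a share of family reads, MIR827_3 alone of the 6 was higher in replicate 2. MIR482, which targets disease resistance genes and is named MIR472 in the annotation, was the 1 defence family, at 9.27 and 11.6 RPM.

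Young families were led by a few entries. MIR161, which targets pentatricopeptide repeat genes, had 770 and 711 RPM (740 ± 41.9 RPM, SD, n = 2), rank 5 in both replicates, and held 75.0% and 66.6% of the reads of the young class. MIR773, which targets the DNA methyltransferase gene DMT2, had 54.3 and 148 RPM. MIR158 had 83.7 and 71.9 RPM. These 3 families held 88.4% and 87.2% of young reads, and without them the other 24 young families held 0.265% and 0.205% of family reads.

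Next among the young families were MIR841 with 30.9 and 26.6 RPM, MIR5643 with 23.4 and 33.2 RPM, and MIR5653 with 16.7 and 16.3 RPM. MIR5026 had 11.3 and 15.3 RPM and MIR822, which targets genes for DC1 domain proteins, had 6.70 and 16.5 RPM. In all, 8 young families thus reached 10 RPM, and the remaining 19 had means from 0.547 to 4.12 RPM. The 23 young families with a number of 400 and above held 0.374% and 0.420% of family reads in all. The 4 with a lower number, MIR161, MIR158, MIR173 and MIR391, held 1.86% and 1.16%. Of these, MIR173, which starts trans-acting small RNAs from TAS1 and TAS2, had 13 and 10 reads (0.778 and 1.06 RPM), and MIR391 had 16 and 5 reads.

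At the lower end the counts limited what could be separated. MIR852 had 13 and 3 reads, or 0.778 RPM (interval 0.414 to 1.33) and 0.317 RPM (0.0654 to 0.926), and MIR829 had 10 and 5 reads. MIR843 was the 1 family with a count of 0: it had 19 reads (1.14 RPM) in replicate 1 and 0 in replicate 2. The limit of 3 reads that a count of 0 allows is 0.317 RPM, and the upper end of the exact interval, which splits its error over both sides, is 0.390 RPM. Every listed family had at least 10 reads in replicate 1. From MIR8180 (3.41 RPM, rank 31) down, each family had a replicate range that overlapped that of the next in the order. Of those 21 pairs, 3 had the same order in both libraries and 0 had counting intervals apart in both, so these places are not resolved.

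The replicates agreed on the top of the order and less on its details. All of the 5 highest families were shared by both replicates, with 9 of the 10 highest and 19 of the 20 highest. Spearman's rho between the replicates was 0.969 over the 52 families and is given as a description. The families share 2 libraries and span a 63852-fold range. For 39 families both values were restored where the replicates lay closest, so the agreement between replicates can be partly set by that rule. Of the 51 pairs of neighbours in the order, 14 had replicate ranges that did not overlap, 6 of them among the 14 pairs within the first 15 ranks. Since both families of a pair come from the same library, their order within each library was also read. It was the same in both libraries for 22 of 51 pairs, and for 11 of these the counting intervals lay apart in both libraries. These 11 include each step from MIR166 down to MIR398, ranks 1 to 9.

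In RPM, replicate 2 was higher for 31 families and lower for 21. As a share of all family reads, which removes the larger microRNA fraction of replicate 2, it was higher for 7 families and lower for 45. Shares add up to a fixed total, and MIR166 went from 57.7% to 64.4%, which lowers the shares of the others. In RPM the families other than MIR166 summed to 19401 in replicate 1 and 23966 in replicate 2. The 7 were MIR166, MIR162_1, MIR773, MIR171_1, MIR822, MIR827_3 and MIR394. The median absolute log2 ratio of replicate 2 over replicate 1, on RPM + 1, was 0.23. Counting intervals of the RPM overlapped for 33 families and did not for 19, of which 14 were higher and 5 lower in replicate 2. Those of the shares did not overlap for 20 families, 4 higher and 16 lower in replicate 2. Both counts take MIR394 as overlapping, by its first placing, and its intervals at the second placing were not computed. Among the 27 families with at least 50 reads in each replicate, 5 differed by more than 1.5-fold in RPM. MIR773 had 907 and 1405 reads (2.74-fold), MIR822 112 and 156 reads (2.46-fold), and MIR162_1 1581 and 1833 reads (2.05-fold). MIR166 (1.64-fold) and MIR171_1 (1.62-fold) followed. All 5 were higher in replicate 2, and the median ratio over the 27 families was 1.25-fold. MIR394 is not among the 27 by its first placing. With its second placing, 170 and 190 reads, it would be, at 1.97-fold, between MIR162_1 and MIR166. With 1 sample on each side these ratios have no test, and they show part of the error behind each level. Placing the decimal mark where the replicates lay closest could hide a much wider difference.

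**Figure D3:**
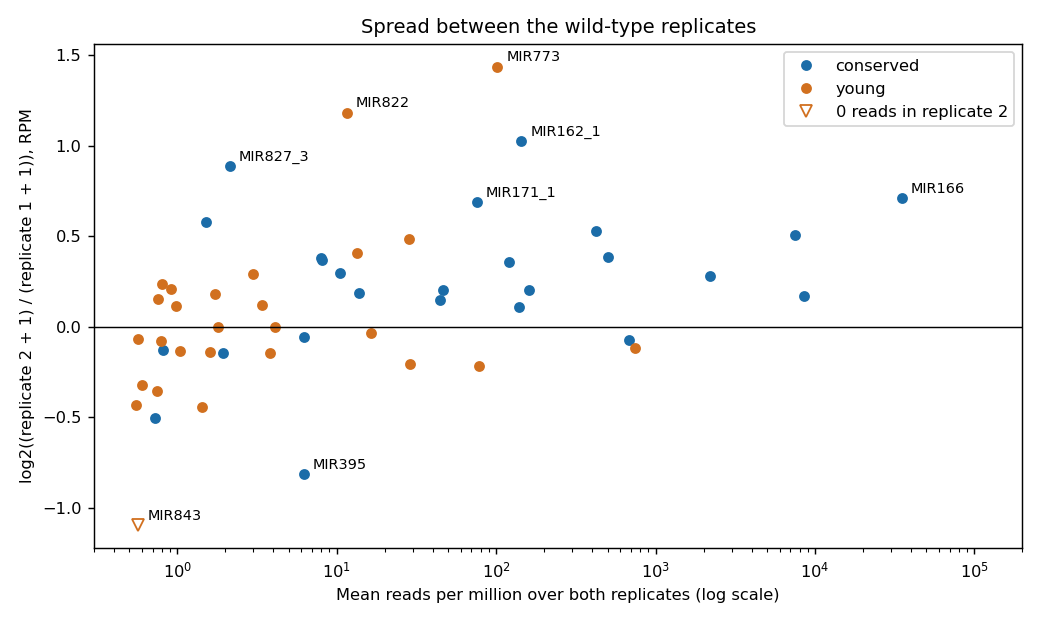
Log2 ratio of wild-type replicate 2 over replicate 1, on RPM + 1, against mean RPM (log axis), 1 point per family, with conserved families in blue and young families in orange. MIR773, MIR822 and MIR162_1 lie above 1, and the triangle marks MIR843, at -1.10, with 0 reads in replicate 2.

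Abundance did not simply follow the number of genes. The RefSeq annotation of TAIR10.1, used for names only, holds 326 microRNA loci, and each of the 52 families matched at least 1 locus, by its number or, for MIR482, under the name MIR472. The 21 conserved families in a single entry had a median of 2 loci (range 1 to 10), and 4 of them had 1 locus. The 27 young families had a median of 1 (range 1 to 6), and 19 of them had 1 locus. Divided by the number of loci, the median level was 25.1 RPM per locus in conserved and 1.04 RPM per locus in young families.

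Families with a single locus included both high and low levels. MIR161 and MIR408 reached means of 740 and 682 RPM from 1 locus each, against 500 RPM for MIR156 from 10 loci. MIR166 has 7 loci, or 4993 RPM per locus, and MIR168 has 2, or 4276 RPM per locus. MIR172 has 5 loci and 0.144 RPM per locus, and the young MIR8167 has 6 loci with 4.13 and 4.12 RPM in all. Nearly identical loci cannot be told apart by short reads, so levels per locus are averages and not measurements of single genes. Loci of MIR157, MIR165, MIR170 and MIR319 were not counted under MIR156, MIR166, MIR171_1 and MIR159, whose reads may include theirs. Levels per locus of those families may therefore be too high.

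**Figure D4:**
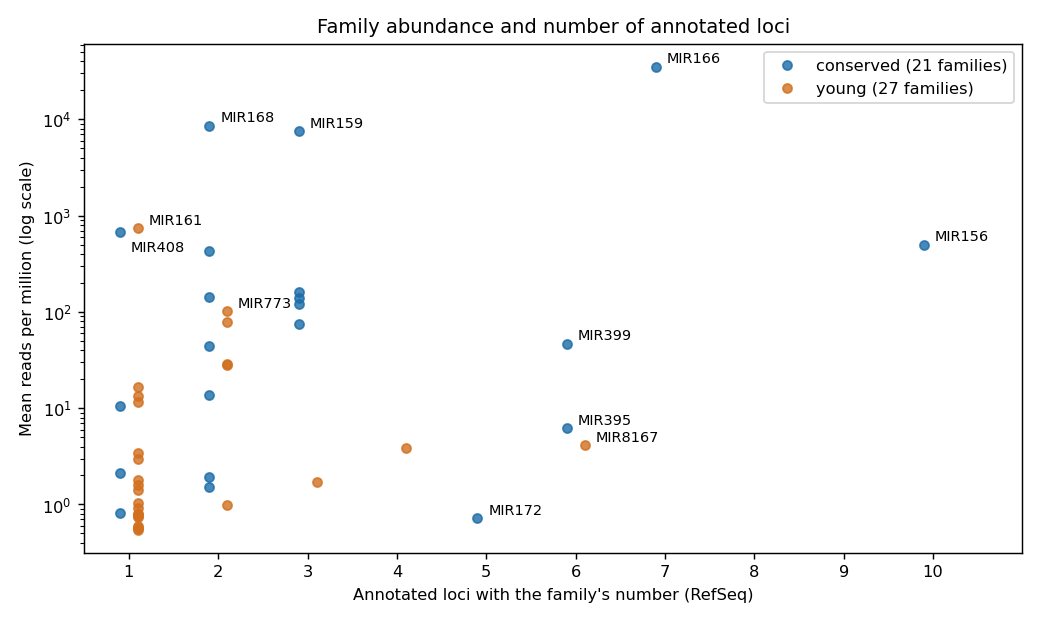
Mean RPM (log axis) against the number of annotated loci with the family's number, for 21 conserved (blue) and 27 young (orange) families that have a single entry, with the classes shifted sideways for sight. MIR156 has the most loci, 10, at 500 RPM, while MIR161 and MIR408 have 1 locus each at 740 and 682 RPM.

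Transcripts of microRNA genes were also seen in the wild-type mRNA libraries, which held 15682546 and 19436632 counts over 20701 loci. Of 28 microRNA loci listed there, 16 belonged to families measured here. The precursor gene MIR398c had the highest count of these, 676 in replicate 1 and 823 in replicate 2. MIR408 had 153 and 223 counts, MIR162a 98 and 114, and MIR156c 89 and 121. The MIR408 gene overlaps AT2G47020, and no label or header says whether counting used the strand, so its reads may be shared. MIR850 had 105 and 91 counts, overlaps AT4G13495, and gave 11 and 9 small RNA reads. None of the loci of MIR166, MIR168 and MIR161 was among those listed.

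Transcripts of known targets were present at ordinary levels beside these microRNAs. Levels are RPKM, counts per kilobase of a locus and per 1000000 counts of the library, computed with the deposited lengths, which lie within 10% of the gene span with introns for 66.6% of loci. Of 83 target genes named for 25 families, 81 were listed, with a median of 5.95 RPKM in replicate 1 and 6.41 RPKM in replicate 2, and the median of all loci was 6.42 and 6.37 RPKM. The genes for CUC1 and MYB101 were not listed. Fewer transcripts per cell and fewer cells of a type cannot be told apart in whole seedlings.

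Targets of the most abundant families lay on both sides of the median of all loci. The 5 class III homeodomain-leucine zipper genes matched by MIR166 lay from 4.98 to 8.21 RPKM in replicate 1 and from 4.58 to 8.08 RPKM in replicate 2, with PHB highest. AGO1, the target of MIR168, had 19.9 and 22.0 RPKM. MYB33, the target of MIR159, had 7.37 and 7.17 RPKM, and MYB65 had 1.29 and 1.45 RPKM. ARF6, matched by MIR167_1, had 16.002 and 15.992 RPKM, IAR3, an auxin conjugate hydrolase gene, had 14.3 and 11.9 RPKM, and ARF8 had 7.90 and 7.31 RPKM. The pentatricopeptide repeat genes matched by MIR161, AT1G06580 and AT5G41170, were lower, at 2.39 and 2.56 RPKM and at 0.608 and 0.662 RPKM.

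Targets of copper and phase change families lay on both sides of the median of all loci. Over the 4 genes matched by MIR408 the median was 2.57 and 2.94 RPKM. The laccase gene LAC3 was the highest of them at 5.04 and 4.83 RPKM, so all lay below the median of all loci. Over the 3 genes matched by MIR398 the median was 6.00 and 6.69 RPKM. CCS, the copper chaperone gene, was the highest of these at 11.3 and 11.2 RPKM. Over the 10 SPL genes matched by MIR156 the median was 3.68 and 3.44 RPKM, with SPL2 highest at 11.2 and 14.6 RPKM. Over the 6 AP2-like genes matched by MIR172, the median was 4.26 and 3.63 RPKM, with TOE1 highest at 16.8 and 11.6 RPKM. In replicate 1 the SPL genes ranged from 1.99 to 11.2 RPKM and the AP2-like genes from 1.32 to 16.8 RPKM. Whether the levels of MIR156 and MIR172 bear on these medians was not tested.

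Of the targets, the highest single levels belonged to families of middle and low abundance. APS1, the ATP sulfurylase gene matched by MIR395, had 171 and 167 RPKM. PHO2, matched by MIR399, had 47.1 and 50.1 RPKM, and the auxin receptor gene TIR1, matched by MIR393, had 42.2 and 44.8 RPKM. LCR, matched by MIR394, had 21.2 and 19.4 RPKM, close to AGO1, the target of MIR168. Not all families of low abundance had high targets. The median was 3.02 and 3.82 RPKM for targets of MIR169_1, and 3.93 and 3.24 RPKM for those of MIR403. The lowest level in replicate 1 was that of GRF8, a growth-regulating factor gene matched by MIR396, with 3 and 13 counts, or 0.0560 and 0.196 RPKM. In replicate 2 it was that of DMT2, matched by MIR773, with 9 and 12 counts, or 0.0992 and 0.107 RPKM. Whether any family sets the level of its targets was not tested, since all values come from 1 condition.

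**Figure D5:**
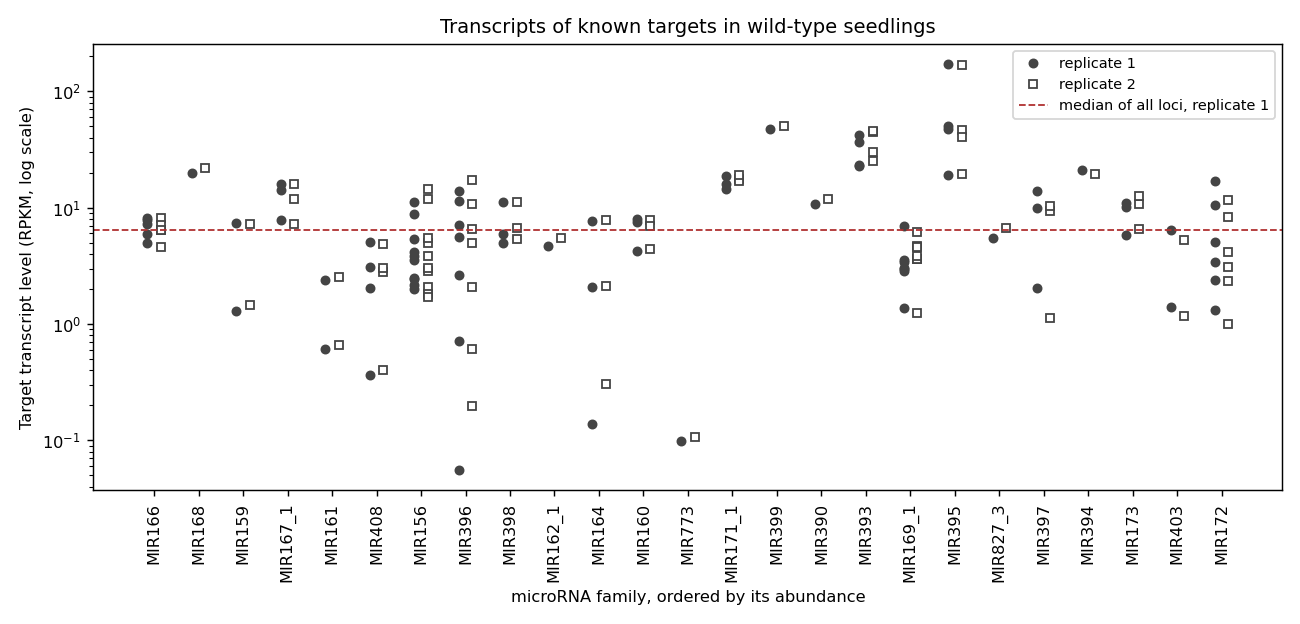
Transcript level (RPKM, log axis) of the 81 listed target genes in wild-type replicates 1 (filled circles) and 2 (open squares), by family in order of family abundance, with the median of all loci in replicate 1 (6.42 RPKM) as a dashed line. Targets of MIR166 lie near the line, APS1 of MIR395 is highest at 171 and 167 RPKM, and DMT2 of MIR773 lies at 0.0992 and 0.107 RPKM.

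Genes of the small RNA pathway were expressed around the level of the median locus. Of 24 genes named, 23 were listed, all but AGO5, with a median of 5.27 and 5.32 RPKM. DCL1, which cuts the precursors, had 4.65 and 5.53 RPKM. Its partners HYL1, a double-stranded RNA binding protein, and SE, a zinc finger protein, had 13.9 and 12.1 RPKM and 12.2 and 13.4 RPKM. HEN1, which methylates the ends of microRNAs, had 4.07 and 3.92 RPKM, and HST, an exportin-like protein, had 2.88 and 2.64 RPKM. AGO1 was the highest of the list, whereas AGO2 had 6.46 and 5.32 RPKM.

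Markers checked the labelled tissue. Of the leaf genes, RBCS1A, for the small subunit of Rubisco, had 8221 and 7778 RPKM and LHCB1.1, for a chlorophyll binding protein, had 2930 and 2294 RPKM. Of the root genes, PYK10, for a beta-glucosidase, had 367 and 344 RPKM and NRT2.1, for a nitrate transporter, had 2.47 and 2.17 RPKM. Of the flower genes AP3, PI and AG were not listed, and SEP3 had 47 and 10 counts. Of the seed genes, the storage protein gene CRC had 34 and 264 counts and the oil body gene OLEO1 25 and 29. The part of the CRC difference in the microRNA levels was not tested.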

How the data were processed

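The small RNA values of the authors' deposited table, headed RPKM, are in another unit, RPM, since 1 read had the same worth whatever the family. Of 104 wild-type values, 83 were restored to whole reads within 0.01 reads. Among restored families with reads in both replicates, the higher value was at most 2.74 times the lower, and any wider placing put them at least 3.65 times apart. Of equal placings the lowest was taken, and 12 families have a value below 1 that fixes theirs. The mRNA counts are whole reads per locus, deposited by the authors beside CPM, which were not used, and RPKM here were computed from the counts and deposited lengths. Tools named in the submitters' processing notes are Bowtie, BWA 0.5.8c and edgeR, with TAIR9 as the build and no roles. Filters, aligner settings and adapter steps are not given in the sources used here. MIR157, MIR165, MIR170 and MIR319 have no entry of their own, and whether their reads were counted with MIR156, MIR166, MIR171_1 and MIR159 is not stated.

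Means, SDs, shares, ranks and intervals were computed in Python 3.11.15 with scipy 1.17.1, figures with matplotlib 3.10.9, and TMM factors, an alternative scaling, with edgeR 4.0.16 in R 4.3.3. No test was made: there is 1 group, and families are not replicates. On simulated data, restoration recovered 297 of 300 families. The others had read numbers ending in 0 in both replicates and were placed too low. Both simulated replicates were drawn close to a shared level, so restoration of families whose replicates truly differ widely was not tested. Classes (conserved or young), roles and targets came from general knowledge, and the class of MIR482 and of the newest families was set with the names in view. The members and lists were chosen with earlier results of these data known. Named families were the 15 highest, the 8 highest of each class, the 5 with the largest ratio between replicates, 3 on each side of each level, and any at 0. Other families are named to complete a group.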

Additional observations from a re-analysis of the deposited data

How the results depend on the processing

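With the next higher place of the decimal mark for every restored family, MIR166 would stand at 349508 RPM against 34951 RPM, while shares stay within the replicate spread. Families fixed by a value below 1 do not include MIR166 and are all rare. Over them alone, the 5 most abundant held 49.6% and conserved families 16.4% of reads. Without MIR166 the 5 most abundant of the others held 90.7% and conserved families 95.1%. With either replicate alone the median of the small RNA pathway genes was 5.27 to 5.32 RPKM, against 5.21 RPKM for their means. Placing by all 4 small RNA columns moved MIR394 from 1.51 to 15.1 RPM and no other family. TMM factors gave MIR166 34514 RPM and moved MIR8167 and MIR869 by more than their very small replicate spread. A minimum of 5 RPM, a class by family number (98.3% of reads in numbers below 400), eudicot families as young (98.1%) and a pseudocount of 0.5 (median absolute log2 ratio 0.28) moved values by less than the replicate spread. With either replicate alone the top 5 held 94.7% to 95.6% and conserved families 97.8% to 98.4%, and with 2 replicates such a shift is always under their SD. Leaving out a replicate for the targets was chosen after seeing the data and gave medians of 5.95 to 6.41 RPKM. No paired analysis was possible because the result comes from no test and holds 1 group. With 2 pools, an SD is a rough guide, and families of under 20 reads are limited by counting.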

Other observations

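The authors' deposited table of the small RNA also gives a log2 fold change whose groups the header does not name. Over the 50 families with no value of 0, the log2 fold change in the authors' deposited table differed by a median of 0.0143 from the log2 ratio of replicate 2 over replicate 1 averaged over both genotypes. From the ratio of the wild-type replicates alone it differed by a median of 0.13. For MIR166, the authors' deposited table gives 0.56, against 0.71 for wild-type replicate 2 over replicate 1. The authors' deposited table lists 12 families with an FDR under 0.05, of which 11 have a positive log2 fold change.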
